A study of Homo sapiens with 12 samples.

Results

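The genes described here encode the proteins of the cytosolic ribosome. They were taken from the array annotation by symbol: RPL or RPS with a number, with or without a closing A, L, X or Y, or RPLP0, RPLP1, RPLP2 or RPSA. Pseudogenes and the RPS6K kinases, whose symbols look alike, were left out. This gave 118 probe sets of 57 genes, out of 54675 probe sets on the array, of which 41097 were assigned to 1 gene. A further 64 probe sets carried a ribosomal protein symbol beside other symbols and were not members, so RPL5, RPL10, RPL13A, RPL23, RPL26, RPLP0, RPSA and RPS27A are not described as genes. Probe sets with a mean log2 value under 4 over all arrays were not tested. That left 98 probe sets of 53 genes, 32 of the large and 21 of the small subunit. The 4 untested genes were RPL36A, RPLP2 and the paralogs RPL3L and RPL10L, whose values lay between 2.31 and 3.42 as means over the Aa arrays of either time and between 2.34 and 3.65 over the controls.

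The RNA came from HK-2 cells, an immortalised human line of kidney proximal tubule epithelium, and was measured on 12 Affymetrix arrays. The groups were cells given a low dose of a compound labelled Aa for 24 h, control cells at 24 h, Aa-exposed cells at 48 h and control cells at 48 h, with 3 arrays each. Controls received the vehicle. The labels state neither the dose as a number, nor what the vehicle was, nor what Aa stands for. All cells grew in the same medium with EGF, hydrocortisone, insulin, transferrin and selenite, and were treated close to confluence. By the labels these are biological replicates, but what separated the cultures is unstated, and the p-values cover the spread among these 3 per group, which may be technical. The question put to the data was whether Aa moved ribosomal protein mRNAs at either time. The series as a whole looked for expression signatures of kidney toxicity.

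The ribosome is built from ribosomal RNA and a set of proteins needed in nearly equal amounts, arranged in a large subunit, which joins amino acids, and a small subunit, which reads the mRNA. In mammals the mRNAs of these proteins begin with a stretch of pyrimidines, the 5′ terminal oligopyrimidine (TOP) motif, through which mTOR signalling and the RNA-binding protein LARP1 control their translation. LARP1 is also known to bind and stabilise these mRNAs. Free ribosomal proteins, RPL5 and RPL11 above all, can bind MDM2 and stabilise p53 when ribosome assembly is disturbed.

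The pyrimidine start was looked for in the RefSeq annotation of GRCh38.p14, because it is a feature of these genes that the choice by symbol did not use. A run was counted where the annotated start itself was a C, followed by C or T only, for at least 5 bases in all. Of the 53 genes tested, 46 had a promoter entry, and 32 of these (69.6%) had such a run at an annotated start. Of all genes tested on the array that had an entry, 7.42% had such a run. Counted by entry, it was 32 of 53 for the members (60.4%), against 4.07% of all 35116 promoter entries. The sequences below run from 10 bases before the annotated start to 20 from it, 5′ to 3′ on the gene's own strand, with the run in capitals. The first 7 begin with a run, among them the longest, 19 bases in RPL39, and the last 3 have none at their annotated start.
RPS6, chr9:19380217-19380246, minus strand: gaagttggccCTCTTTTCCgtggcgcctcg
RPL39, chrX:119791611-119791640, minus strand: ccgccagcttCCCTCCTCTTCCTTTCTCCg
RPS24, chr10:78033853-78033882, plus strand: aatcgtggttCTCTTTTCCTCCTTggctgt
RPS19, chr19:41860245-41860274, plus strand: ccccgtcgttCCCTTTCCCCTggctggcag
RPL22, chr1:6199576-6199605, minus strand: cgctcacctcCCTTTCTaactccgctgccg
RPL35A, chr3:197950180-197950209, plus strand: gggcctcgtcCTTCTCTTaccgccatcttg
RPS23, chr5:82278335-82278364, minus strand: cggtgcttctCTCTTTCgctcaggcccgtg
RPS27L, chr15:63157458-63157487, minus strand: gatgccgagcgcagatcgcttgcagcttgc
RPS28, chr19:8321486-8321515, plus strand: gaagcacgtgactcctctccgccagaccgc
RPS29, chr14:49598691-49598720, minus strand: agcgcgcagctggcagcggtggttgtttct

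These windows show the annotated start only, and no match says nothing about the start used in HK-2 cells. RPL39L, RPS15A and RPL37, described below, had no entry. The members lie on 19 chromosomes and are short genes, with a median of 5.06 kb from start to end, against 30.4 kb over the tested genes of the array.

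No array stood apart: within groups, correlations over all probe sets (Pearson's r) ran from 0.994 to 0.997, and array medians lay between 2.93 and 3.01 on the log2 scale. The labelled cell type was checked on its markers. The epithelial genes KRT8, KRT18, KRT19 and EPCAM were at 12.13 to 13.06 over all arrays, and CDH1 at 6.84. Of 8 proximal tubule markers with a probe set, SLC3A1 (8.37) and PAX8 (10.93) passed the filter, while LRP2, CUBN, GGT1, ANPEP, SLC34A1 and AQP1 were below 4. All 3 leukocyte and all 3 endothelial markers were below 4, as were COL3A1 and PDGFRB among the fibroblast markers, whereas COL1A1 was at 8.10 and fell with Aa at 24 h (log2 difference -0.85, adjusted p = 0.0276 in limma). KRT19 fell at 24 h (-0.71, adjusted p = 0.0141), and SLC3A1 (-1.87, 0.0118) and PAX8 (-0.45, 0.0101) fell at 48 h. The part of these marker changes in the results below was not tested.

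In HK-2 cells the signals of ribosomal protein genes sat near the top of the scale. For each gene the probe set of highest mean was used, here called its brightest, and the median of these means was 14.97, with a range of 8.68 to 15.69, on a table whose highest value was 16.248. The median over all 10791 genes tested was 8.66. A mean of at least 14 was found for 48 of the 53 members (90.6%) and for 127 of all genes tested (1.18%). A signal also depends on the probes and on saturation, so these values place the members on the scale and do not rank their mRNAs.

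The median signal over the 53 genes hardly moved from array to array. It was 14.94, 14.96 and 15.02 in the Aa arrays at 24 h, against 14.91, 14.94 and 14.95 in the controls. At 48 h it was 14.99, 14.95 and 15.05 in the Aa arrays, against 14.95, 15.00 and 14.97 in the controls. The groups overlapped at both times, and the pooled SD of the 4 groups was 0.04. Since the arrays were brought to a common scale and measure RNA in bulk, fewer cells and less RNA per cell cannot be told apart.

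After 24 h with Aa, 1 of 53 ribosomal protein genes was called, at an adjusted p under 0.05 in limma, and it fell. This was RPS27L, a paralog of RPS27 known as a p53 target. Over all genes tested 23.1% were called, 10.3% higher and 12.8% lower. The log2 differences, Aa minus control, of the 53 genes had a median of 0.03 and ran from -0.39 to 0.09, and their median size was 0.05, against 0.24 over all genes tested. The large subunit genes had a median of 0.02 with none called, and the small subunit genes a median of 0.04 with only RPS27L called. The Aa arrays lay all above or all below the controls in 8 members (15.1%), against 40.5% of all genes tested.

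The intervals describe the signals and not the mRNAs, since whether signals this close to the top of the scale are compressed was not tested. At 24 h the 95% interval lay within a 1.5-fold change either way for 52 of the 53 genes (98.1%), against 46.5% of all genes tested. It lay within 1.2-fold for 42 (79.2%), against 5.91%. Bright genes in general moved little at this time. Of the genes with a mean of at least 12, 8.42% were called at 24 h, or 8.87% without the members, and among members of this class 1 of 51 (1.96%). Of those with a mean of at least 14, 0 of 79 non-members and 0 of 48 members were called in limma, and an unadjusted p under 0.05 was reached by 1 of the 79 and by 0 of the 48. Among short genes the share was not low: 25% of genes spanning under 10 kb were called, against 2.27% of the 44 members among them. The level of the signal thus moved with the share called, and its part in the members' result was not tested.

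At 48 h with Aa, 2 of 53 genes were called, RPL39L higher and RPS15A lower. Over all genes tested 37.8% were called, 17.8% higher and 20.1% lower. The differences ran from -0.32 to 0.46. Their median was 0.00, as was that of all genes tested, while the median size was 0.05 in the members and 0.32 over all genes tested. The Aa and control arrays were apart in 12 members (22.6%), against 48.4%. The interval lay within 1.5-fold for 51 genes (96.2%), against 40% of all genes tested, and within 1.2-fold for 39 (73.6%), against 4.7%. Among genes with a mean of at least 14, where 10 of 79 non-members were called (12.7%), 1 of 48 members was (2.08%).

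The replicate numbers pair the samples, and with the number as a block 1 gene was called higher and 5 lower at 48 h, where over all genes the share called was 54.8%. Besides RPL39L and RPS15A these were RPL3 (-0.20, adjusted p = 0.0353 in the blocked limma fit), a protein close to the site of peptide bond formation, RPL34 (-0.17, 0.0473), RPL36 (-0.27, 0.0163) and RPL37 (-0.22, 0.0304). Each of these 4 missed the threshold without the block, with adjusted p from 0.0649 for RPL37 to 0.223 for RPL36, and differed by 0.27 or less in size. For RPL3 the adjusted p at 48 h lay between 0.0353 and 0.396 over 23 alternatives. At 24 h the block left the count at 1, where over all genes the share called was 41.3%.

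**Figure D1:**
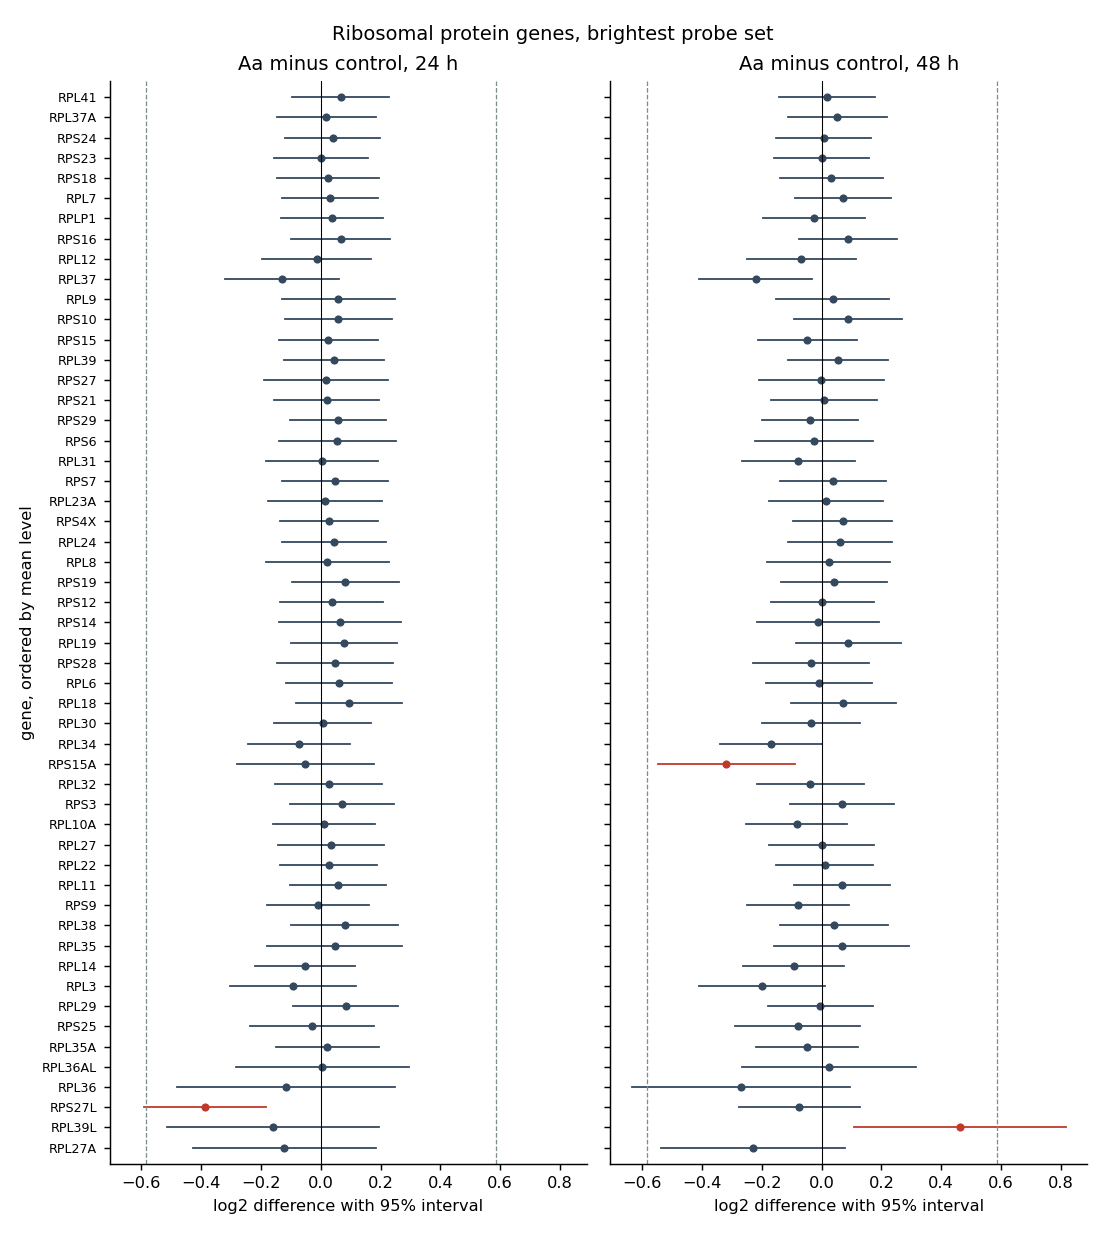
Log2 difference, Aa minus control, of the 53 ribosomal protein genes at 24 h (left) and 48 h (right), each by its brightest probe set, with the 95% interval of the limma fit (3 arrays per group); genes are ordered by mean level, with the highest at the top. Dashed lines mark a 1.5-fold change and red marks the genes called at an adjusted p under 0.05, which are RPS27L at 24 h, and RPS15A and RPL39L at 48 h.

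RPS27L was lower in every Aa array than in every control at 24 h, while at 48 h the groups overlapped. At 24 h it had 11.79, 11.95 and 11.78 in the Aa arrays, against 12.24, 12.30 and 12.14 in the controls, so the groups did not overlap. The log2 difference was -0.39 (SE 0.09, 0.764-fold, adjusted p = 0.0123 in limma). At 48 h the Aa arrays had 12.03, 11.93 and 11.96, against 11.94, 12.05 and 12.15 in the controls, with a difference of -0.07 (SE 0.09). The fall was seen in all 3 replicate pairs at 24 h. Without replicate 1 or without replicate 3 in all groups the adjusted p was 0.148 or 0.0931. The difference lay between -1.14 and -0.35 over 24 alternative settings. The change of the Aa effect between the times was 0.31 (SE 0.13), with an adjusted p of 0.303.

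The gene's other probe sets went the same way at 24 h. Probe set 222487_s_at had 6.80, 6.54 and 6.28 in the Aa arrays, against 7.13, 7.31 and 7.34 in the controls (-0.72, adjusted p = 0.0102 in limma over all probe sets). Probe set 238935_at had a mean of 4.43 ± 0.38 in the Aa arrays, against 5.57 ± 0.13 in the controls (SD, n = 3 each; -1.14, SE 0.22, adjusted p = 0.00467). In both, the groups did not overlap. Another p53 target, CDKN1A, which encodes the cell cycle inhibitor p21, moved the other way: it had 10.79, 10.66 and 10.66 in the Aa arrays at 24 h, against 9.51, 9.83 and 9.66 in the controls, and rose by 1.03 (SE 0.22, adjusted p = 0.00716) at 24 h and by 1.66 (SE 0.22, adjusted p = 0.000358) at 48 h.

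RPL39L, a paralog of RPL39 known for its expression in testis, was called higher at 48 h only. It had 9.72, 9.46 and 9.75 in the Aa arrays at 48 h, against 9.09, 8.95 and 9.49 in the controls, where the highest control lay above the lowest Aa array. The difference was 0.46 (SE 0.16, 1.38-fold, adjusted p = 0.0428 in limma). At 24 h the Aa arrays had 9.35, 9.21 and 9.47, against 9.44, 9.32 and 9.75 in the controls, a difference of -0.16 (SE 0.16) that was not called. The adjusted p at 48 h lay between 0.00156 and 0.321 over 24 alternatives and missed the threshold in 12 of them. These were no filter, quantile normalization, only the groups compared, leaving out replicate 1 or 2 in all groups, and leaving out a single array (Aa 1 or 3 at either time, control 1 at 24 h, control 1 or 2 at 48 h). The change of the Aa effect, 0.62 (SE 0.23), had an adjusted p of 0.241, and of 0.0158 with the replicate block. In the controls RPL39L differed by -0.32 between 48 h and 24 h, with an adjusted p of 0.338 in limma and of 0.0298 with the block.

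RPS15A, a protein of the small subunit, gave opposite results on its probe sets. Its brightest, 200781_s_at, had 14.59, 14.77 and 14.52 in the Aa arrays at 48 h, against 14.95, 15.01 and 14.88 in the controls, which did not overlap. It fell by 0.32 on the log2 scale (SE 0.10, 0.802-fold, adjusted p = 0.0329 in limma). At 24 h it had 14.66, 14.94 and 14.76 in the Aa arrays, against 14.80, 14.94 and 14.78 in the controls, a difference of -0.05 (SE 0.10). Leaving out replicate 1 or 3 in all groups, or a single 48 h array (Aa 1 or 3, control 1 or 2), ended the call, with adjusted p from 0.0746 to 0.203, as did a fit on only the groups compared (0.0691). On the mean of its probe sets, or on the brightest without a mark of shared sequence, the gene rose instead, by 1.49 and 3.30 at 48 h, because its other tested probe set, described below, rose.

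**Figure D2:**
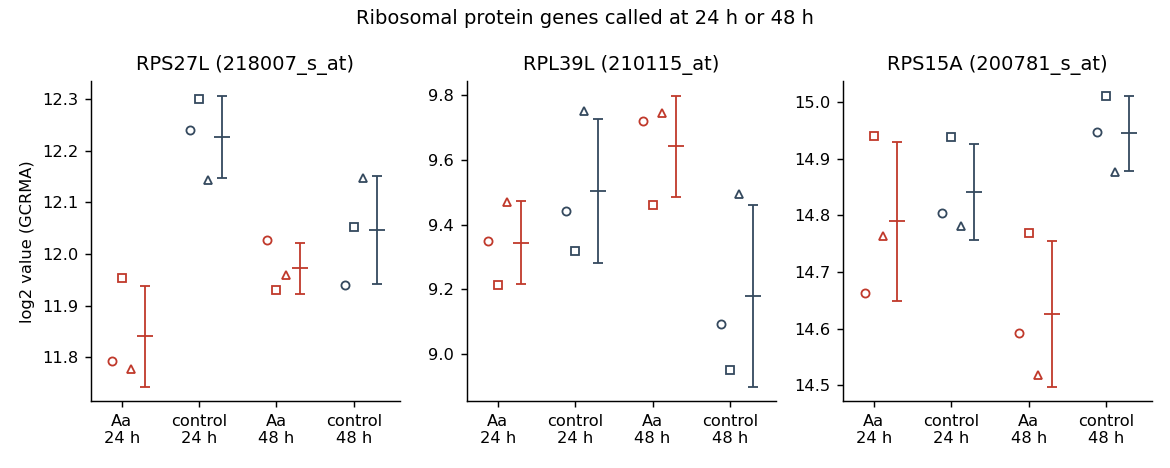
Log2 values per array of the 3 ribosomal protein genes called at either time, by their brightest probe set, in Aa-exposed (red) and control cells (dark) at 24 h and 48 h; circle, square and triangle are replicates 1, 2 and 3, and the bar to the right of each group is the mean with its SD (n = 3). The vertical scales differ and do not start at 0: the Aa arrays of RPS27L at 24 h lie at 11.95 or below and the controls at 12.14 or above.

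Members with a role of their own were looked at whatever their change. RPL11, which with RPL5 carries the 5S RNA and binds MDM2, had 14.45, 14.47 and 14.48 in the Aa arrays at 24 h, against 14.37, 14.41 and 14.45 in the controls, and 14.52, 14.53 and 14.55 at 48 h, against 14.46, 14.51 and 14.42. RPS6, the substrate of the S6 kinases, had 15.07, 15.18 and 15.22 at 24 h, against 14.99, 15.17 and 15.14, and 15.06, 15.17 and 15.15 at 48 h, against 15.07, 15.22 and 15.17 in the controls. Neither was called: RPL11 differed by 0.06 and 0.07 (SE 0.07 each) and RPS6 by 0.06 and -0.03 (SE 0.09 each). The Aa arrays of RPL11 lay above the controls at both times.

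Genes whose loss is known to disturb red cell formation were not called either. RPS19, mutated in Diamond-Blackfan anaemia, differed by 0.08 and 0.04 (SE 0.08 each), and RPS14, lost in the 5q- syndrome, by 0.06 and -0.01 (SE 0.09 each), at 24 h and 48 h. RPLP1, a protein of the stalk to which elongation factors bind, differed by 0.04 and -0.03 (SE 0.08 each). Of the small subunit proteins, RPS3, at the entry of the mRNA channel, differed by 0.07 at both times, RPS7 by 0.05 and 0.04, and RPS4X by 0.03 and 0.07. RPL22 differed by 0.03 and 0.01 on its brightest probe set, RPL3 by -0.09 at 24 h, and the paralog RPL36AL by 0.01 and 0.02. None of these was called at 24 h or, without the replicate block, at 48 h. RPL41, with the highest mean signal of all members, had 15.67, 15.76 and 15.69 in the Aa arrays at 24 h, against 15.64, 15.68 and 15.60 in the controls, a difference of 0.07 (SE 0.07); it was picked after the values were seen.

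Between the times, the Aa effect changed in 0 of 53 genes (0.825% of all genes tested were called for this change, 0.741% higher and 0.0834% lower) and the controls themselves changed between 24 h and 48 h in 0 of 53 (0.5%). An unadjusted p under 0.05 in limma was reached by 2 members in each of these comparisons. With the replicate block, 1 member was called for the change of effect, RPL39L, and 2 for the controls over time, RPL39L and RPL27A. Over all genes tested the block gave shares of 11% and 17.8% in these comparisons. RPL27A had 8.93, 9.01 and 9.10 in the controls at 48 h, against 8.45, 8.61 and 8.49 at 24 h, a difference of 0.50 (SE 0.14, adjusted p = 0.128 in limma and 0.0227 with the block). The median difference of the members in the controls over time was 0.05.

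Some dimmer probe sets of the same genes differed strongly between Aa and control. Tested one by one over all 22573 probe sets past the filter, 11 of the 98 member probe sets rose and 4 fell at 24 h, where 11.6% of all probe sets rose and 11% fell. At 48 h, 11 rose and 2 fell, where 16.3% rose and 16.9% fell, or 33.2% together. Over all 98, the share that rose was near that of the array at 24 h and below it at 48 h. In this test over single probe sets 0 of the 53 brightest rose at either time. RPL39L, called higher at 48 h among genes, has an adjusted p of 0.0506 here. All 11 that rose at each time were among the 45 that are not the brightest of their gene. This is a larger share than over the whole array, where 12% of such probe sets rose at 24 h and 14.7% at 48 h. The difference in shares was not tested. With the block, 13 rose and 6 fell at 24 h, and 13 rose and 7 fell at 48 h, of which 12 that rose were not the brightest of their gene. The shares above are without the block, which raised the share of all genes called to 41.3% at 24 h and 54.8% at 48 h. These 2 shares are of genes, and the share over all probe sets with the block is not given here.

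**Figure D3:**
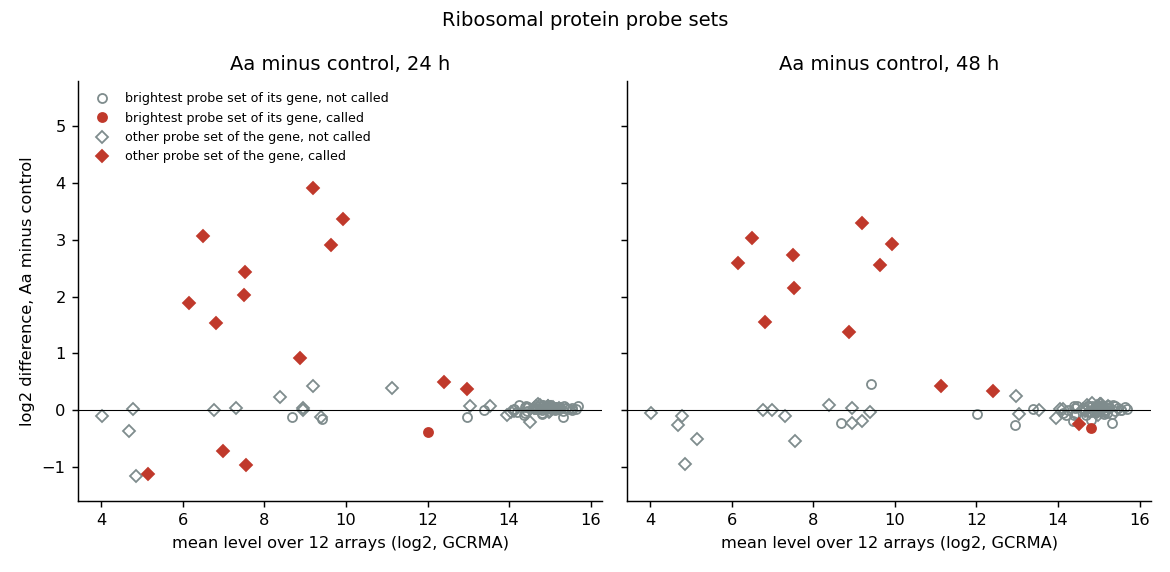
Log2 difference, Aa minus control, against the mean level over 12 arrays for the 98 ribosomal protein probe sets tested, at 24 h (left) and 48 h (right). Circles are the brightest probe set of a gene and diamonds its other probe sets, filled red where called at an adjusted p under 0.05 over all probe sets; bright circles lie near 0, and the rises of 0.92 to 3.91 at 24 h belong to diamonds at mean levels under 10.

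Large rises came from 9 probe sets of 6 genes, with a mean level under 10. They were chosen after their values were seen, as were their genes except where named above. In the 24 h Aa arrays their values ran from 6.75 to 11.47, against 3.67 to 8.41 in the controls, and in the 48 h Aa arrays from 7.33 to 12.01, against 4.90 to 9.18. In each of the 9 all Aa arrays lay above all controls at both times, and each was called in all 22 alternatives run on it. By at least 1 log2 unit, 8 member probe sets rose at 24 h and 9 at 48 h, all of them among the 45 that are not the brightest, where the array's share was 5.45% and 5.86%. The mean of each lay at least 5.23 log2 units under that of the brightest probe set of its gene.

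RPL37, a zinc-binding protein of the large subunit, had the most such probe sets. Probe set 224763_at had 11.47, 10.79 and 11.38 in the Aa arrays at 24 h, against 7.88, 7.97 and 7.69 in the controls, and 12.01, 11.50 and 11.87 at 48 h, against 9.18, 9.13 and 8.27. It rose by 3.37 (SE 0.26, 10.3-fold, adjusted p = 1.8e-05 in limma) and by 2.93 (SE 0.26, 7.64-fold, adjusted p = 3.31e-05). Probe set 224767_at rose by 2.91 and 2.56 (SE 0.18 each) and 224766_at by 1.88 and 2.60 (SE 0.14 each). The same cells gave 15.34, 15.14 and 15.29 on the brightest RPL37 probe set at 24 h with Aa, against 15.39, 15.30 and 15.47 in controls, so that 3 probe sets rose several-fold while the brightest did not.

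RPS15A showed the largest rise of any member probe set at 24 h. Probe set 235309_at had 10.82, 11.27 and 10.84 in the Aa arrays at 24 h, against 7.08, 7.27 and 6.85 in the controls. At 48 h it had 11.13, 11.01 and 10.90, against 8.18, 8.04 and 6.94. The differences were 3.91 (SE 0.28, adjusted p = 1.31e-05 in limma) and 3.30 (SE 0.28, adjusted p = 2.71e-05), against a fall of 0.32 on the brightest probe set at 48 h.

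Small subunit genes gave 4 more. RPS23, whose protein lies in the decoding centre, had 8.64, 7.98 and 8.08 on probe set 227722_at in the Aa arrays at 24 h, against 6.12, 6.26 and 6.22 in the controls, and rose by 2.03 at 24 h and 2.73 at 48 h (SE 0.26 each). Its brightest probe set had 15.55, 15.54 and 15.51 in the same Aa arrays, against 15.58, 15.51 and 15.51, a difference of 0.00 (SE 0.08) at both times. RPS28 rose on 208903_at by 2.43 and 2.16 (SE 0.21 each) and on 208902_s_at by 1.53 and 1.55 (SE 0.18 each), while its brightest probe set, 208904_s_at, differed by 0.05 and -0.04 (SE 0.09 each).

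RPS29, another zinc-binding protein of the small subunit, had the dimmest controls of the group. On probe set 238824_at it had 7.58, 7.50 and 7.26 in the Aa arrays at 24 h, against 4.47, 5.00 and 3.67 in the controls, and 8.92, 8.95 and 7.93 at 48 h, against 5.59, 6.22 and 4.90. It rose by 3.07 and 3.03 (SE 0.40 each, adjusted p = 0.000484 and 0.000367 in limma), and its brightest probe set differed by 0.06 and -0.04 (SE 0.08 each). RPL35A, of the large subunit, rose least, by 0.92 and 1.37 (SE 0.13 each) on 238026_at: it had 9.04, 9.35 and 9.23 in the Aa arrays at 24 h, against 8.17, 8.29 and 8.41 in the controls.

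**Figure D4:**
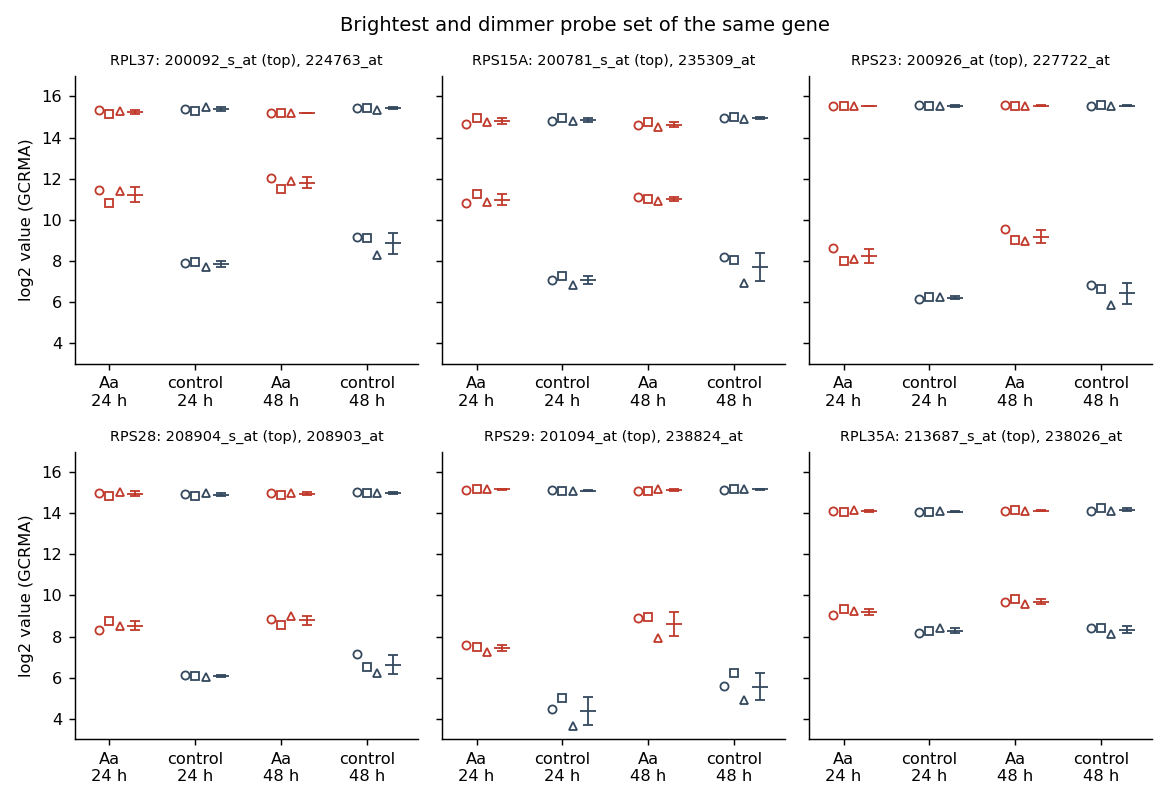
Log2 values per array of the brightest probe set (upper points) and of a dimmer probe set (lower points) of 6 ribosomal protein genes, in Aa-exposed (red) and control cells (dark) at 24 h and 48 h; circle, square and triangle are replicates 1, 2 and 3, and the bar beside each group is the mean with its SD (n = 3). The lower points are higher with Aa in every panel, from 0.92 for RPL35A to 3.91 for RPS15A at 24 h. The upper points differ by 0.32 or less, and the largest difference, a fall of RPS15A at 48 h, was called. The axis runs from 3 to 17.

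Smaller changes were seen on other probe sets. RPL22 rose on 221726_at by 0.49 at 24 h and 0.34 at 48 h (SE 0.12 each) and on 214042_s_at by 0.37 at 24 h (SE 0.10), and RPS21 rose on 214097_at by 0.41 at 48 h (SE 0.14). RPS24 fell on 1555878_at by 0.96 on the log2 scale at 24 h (SE 0.26), and RPL10A fell on 200036_s_at by 0.24 at 48 h (SE 0.08). These too were chosen after their values were seen, and each lost its call in some of the 22 alternatives.

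The annotation of the probe sets that rose was looked at next. Of the 98 tested, 38 have a RefSeq mRNA as their sequence entry in the array annotation, and 0 of these rose at either time in limma, against 6.88% at 24 h and 16% at 48 h of such probe sets over the array. Another kind of entry is listed for 39, of which 10 rose at each time, against 13% and 16.1% over the array. No entry is listed for 21, of which 1 rose at each time, against 10.1% and 14.5%. Of the 28 whose identifier carries no mark of sequence shared with other transcripts, 9 rose at 24 h and 10 at 48 h, against 14.3% and 17.8% over the array. Nothing particular to the members was tested in these shares. Which part of a transcript, or of the gene, each probe set matches was not looked up, since no genome was used here.

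The probe sets with a ribosomal protein symbol beside other symbols, often those of small nucleolar RNAs encoded in introns of these genes, were followed as a check. Of the 57 past the filter, 4 rose and 2 fell at 24 h, where 11.6% of all probe sets rose and 11% fell. At 48 h, 2 rose and 3 fell, where 16.3% rose and 16.9% fell. Their median difference at 24 h was 0.03.

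Genes that work with the ribosomal proteins were followed on lists chosen with results of these data known. Their counts are to be read against all genes tested, of which 10.3% rose and 12.8% fell at 24 h and 17.8% rose and 20.1% fell at 48 h, and with the replicate block 41.3% and 54.8% were called either way. Of 25 ribosome biogenesis genes tested, 0 rose and 2 fell at 24 h, with a median of 0.04. At 48 h, 2 rose and 2 fell, with a median of 0.20. WDR12, needed for large subunit assembly, fell by 0.51 on the log2 scale at 24 h and by 0.27 at 48 h (SE 0.10 each). On the mean of its probe sets WDR12 rose instead, by 0.41 and 0.38. At 48 h it was called in 10 of 24 alternatives, that rise among them. NHP2, of the box H/ACA particles that modify ribosomal RNA, fell by 0.31 and 0.49 (SE 0.10 each), with the call at 24 h held in 11 of 23 alternatives and lost, among others, without any 1 of the 3 controls at 24 h. NOP2, a ribosomal RNA methyltransferase, rose by 0.79 at 48 h (SE 0.17), as did NOP58, of the box C/D particles, by 0.34 (SE 0.11), called in 16 of 24 alternatives. With the replicate block, 4 rose and 4 fell at 24 h and 11 rose and 3 fell at 48 h, where 54.8% of all genes were called.

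Genes of RNA polymerase I, which transcribes ribosomal RNA, moved both ways. Of 11 tested, 3 rose and 1 fell at each time, with medians of -0.00 and 0.06, where 23.1% and 37.8% of all genes were called. With the block, 3 rose and 2 fell at each time. UBTF, which binds ribosomal DNA, had 8.24, 8.41 and 8.35 in the Aa arrays at 24 h, against 7.54, 7.47 and 7.33 in the controls, and rose by 0.89 and 0.78 (SE 0.16 each), but on the mean of its probe sets it differed by 0.13 and 0.16 and was not called. Of the SL1 promoter factor, TAF1C rose by 0.98 and 1.02 (SE 0.29 each) and TAF1B fell by 0.72 and 0.99 on the log2 scale (SE 0.18 each). TAF1C had 8.07, 6.69 and 7.40 in the Aa arrays at 24 h, against 6.43, 6.38 and 6.42 in the controls; without the first Aa array the difference was 0.64 (adjusted p = 0.103), and its call at 24 h held in 13 of 23 alternatives, with values from 0.48 to 1.32. TAF1B at 24 h was -0.30 and not called without probe sets marked as shared. The polymerase subunit gene POLR1D rose by 0.72 at 24 h (SE 0.15), and RRN3, which brings the polymerase to the promoter, by 0.52 at 48 h (SE 0.14).

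Regulators of ribosomal protein mRNA translation were called at both times, and for the change of the Aa effect in 0 of 11 in limma (2 at an unadjusted p under 0.05, and 1 called with the block). Of 11 tested, 2 rose and 0 fell at 24 h, with a median of 0.09, and 2 rose and 4 fell at 48 h, with a median of -0.11. With the block the count at 24 h was 3 higher and 2 lower. EIF4EBP2, which holds back the cap-binding protein eIF4E, had 10.62, 10.82 and 10.65 in the Aa arrays at 24 h, against 9.62, 9.70 and 9.54 in the controls, and rose by 1.08 and 1.22 (SE 0.10 each). RPS6KB1, the S6 kinase, rose by 0.39 at both times (SE 0.11 each), called in 17 and 19 of 24 alternatives. At 48 h LARP1 fell by 0.37 on the log2 scale (SE 0.11, adjusted p = 0.02 in limma), EIF4EBP1 by 0.60 (SE 0.15), and the mTOR inhibitors DEPTOR and DDIT4 by 1.06 (SE 0.23) and 1.05 (SE 0.20).

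The remaining lists were shorter. Of 12 translation factors tested, many of which also have TOP mRNAs, 1 rose and 0 fell at 24 h, EIF4B by 0.37 (SE 0.11). That call held in 15 of 24 alternatives, with values from 0.08 on the mean of its probe sets to 0.42 and adjusted p up to 0.654, and it was lost without any 1 of the 3 Aa arrays at 24 h. In limma 0 were called at 48 h, with 1 higher under the block. Of 5 chaperones of ribosomal proteins, 0 were called at 24 h, and HEATR3 (0.35, SE 0.12, called in 16 of 24 alternatives) and RPS19BP1 (0.57, SE 0.14) rose at 48 h. With the block, 2 chaperones were called higher and 1 lower at 24 h, and 3 higher at 48 h. Of the 3 paralogs outside the symbol pattern, RPL7L1 rose by 0.55 and 0.56 (SE 0.14 each) and RPL22L1 and RPL26L1 were not called. FAU, whose product is processed to RPS30, differed by 0.11 and 0.26 (SE 0.10 each, adjusted p = 0.0541 at 48 h, and 0.00852 with the block, the lowest of 23 alternatives that reached up to 0.246). Of 3 tested genes of ribosome surveillance through p53, CDKN1A rose at both times and MDM4 at 24 h (0.44, SE 0.12, called in 17 of 24 alternatives), while MDM2 differed by -0.08 and -0.01 (SE 0.12 each).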

How the data were processed

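Total RNA of the 12 HK-2 samples was hybridised to 1-colour Affymetrix arrays. Per the submitters' processing notes the authors used GCRMA (version not stated), and what they deposited is log2 signal per probe set, from 0.817 to 16.248. Gene names came from a probe set annotation, updated to current symbols by gene ID for 41043 probe sets. Each gene was its probe set with the highest mean, kept at a mean of at least 4.

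All 12 arrays entered 1 linear model with a mean per group (limma 3.58.1, R 4.3.3, lmFit and eBayes, 2-sided, Benjamini-Hochberg over all 10791 genes or 22573 probe sets, threshold 0.05) and tested on simulated data. Alternatives covered the filter, the probe set used, the normalization, the prior, the samples and the replicates. The number of arrays limits the precision.

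The members and lists were chosen with earlier results of these data known. Named were all called members, 24 genes fixed by function, of which 13 were tested members, and up to 4 genes a list with the smallest p at each time. The replicate numbers pair the samples: deviations from group means of arrays with the same number correlated at 0.349 to 0.619 (18 pairs), and the other 36 pairs at -0.49 to -0.011. Deviations within a group cancel out, so a positive correlation at the same number pushes the other pairs negative, and these ranges are not independent. Y-linked members are not reported.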

Additional observations from a re-analysis of the deposited data

Results flagged for a closer look

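For RPL39L, Aa minus control had opposite signs at the 2 times in every replicate pair. The Aa array minus its control of the same number was -0.09, -0.11 and -0.28 at 24 h and 0.62, 0.51 and 0.25 at 48 h. The difference at 24 h, -0.16 (SE 0.16), was not called. The change of effect, 0.6216 on the log2 scale, had an adjusted p of 0.241 in limma and of 0.0158 with the replicate block.

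The array also holds control probe sets named for 28S ribosomal RNA. They are not members, though they were among the 22573 probe sets tested, and they were higher with Aa. Probe set AFFX-M27830_5_at had 9.71, 8.61 and 9.43 in the Aa arrays at 24 h, against 8.54, 7.79 and 8.23 in the controls, a difference of 1.0604 (SE 0.31, adjusted p = 0.0331 in limma), and of 0.9234 at 48 h. Probe set AFFX-M27830_M_at had 10.77, 10.86 and 11.26, against 8.90, 9.47 and 9.51, a difference of 1.6723 (SE 0.37, adjusted p = 0.00857), and of 1.5205 at 48 h. The Aa arrays were above the controls at 24 h in both. Between 48 h and 24 h the controls themselves differed by 0.91 on AFFX-M27830_5_at, with an adjusted p of 0.233 in limma and of 0.00892 with the block. On AFFX-M27830_M_at they differed by 0.22. Whether these control probe sets follow the amount of ribosomal RNA in the cells was not tested.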

How the results depend on the processing

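Against 1 of 53 ribosomal protein genes called at 24 h, the count was 8 on the mean of a gene's probe sets. Without probe sets marked as shared, fewer than the 53 members and 7935 instead of 10791 genes in all were tested, and the count was 7. With each probe set counted it was 15 of 98, beside 22.6% of all probe sets, and it was 0 to 1 when replicates were left out. Against 2 called at 48 h it was 7, 7 and 13 under those settings, the last beside 33.2% of all probe sets. It was 1 with quantile normalization, 5 with a trended and robust prior and 0 with only the groups compared. With the replicate block it was 6, beside 54.8% of all genes, and it was 0 to 3 when replicates were left out. Shares over all genes under the remaining settings are not given here. Dimmer probe sets enter when the probe set used is changed, and their part in these counts was not tested. The median difference at 48 h was 0.0695 without shared probe sets. Probe sets called at 48 h were 20 with the replicate block. Among genes the block gave 1 call for the change of effect and 2 for the controls over time, beside 11% and 17.8% of all genes. Reversed values came from the choice of probe set: RPS15A at 1.93 (mean of probe sets) and 3.91 (no shared) at 24 h and 1.49 and 3.30 at 48 h, BCCIP at 0.72 (no shared) at 24 h and 0.44 and 1.11 at 48 h, WDR12 at 0.41 and 0.38 and POLR1D at -0.31 at 48 h (mean of probe sets). Of 3058 values recomputed for 132 named changes, 2793 kept their side of the threshold, 218 lost a call and 37 gained one. The other 10 are the reversed values above, each called. A value that was not called could change sign and still count as kept, as for MDM2 at 24 h (-0.19 to 0.02). The cause of the other changes was not tested. The count at 24 h was 0 without replicate 1 or 3, and at 48 h without replicate 1 or without a single 48 h array (Aa 1 or 3, control 1 or 2). Most members lie near the top of the signal scale, and whether large signals are compressed there was not tested.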
